A study of Mus musculus with 2 samples.

Results

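Accessible chromatin was described here around 10 genes that mark the stroma and the mural cells of the kidney, out of 21670 protein-coding genes (autosomes and X). The genes were taken from a fixed list, which was drawn up with earlier results of these data known. Of these, 4 are genes of fibroblasts and their matrix (Pdgfra, Col1a1, Col1a2 and Col3a1) and 6 are genes of mural cells, meaning smooth muscle, pericytes and mesangium (Pdgfrb, Itga8, Acta2, Tagln, Myh11 and Rgs5). For each gene the window was the gene body of the GENCODE M21 annotation with 10 kb added on each side, 730.9 kb in all. The data are 2 DNase-seq libraries, biological replicates 2 and 1 of a single group, made from kidneys of female B6CASTF1/J mice (the first-generation cross of C57BL/6J and CAST/EiJ) at 8 to 10 postnatal months, supplied by The Jackson Laboratory. Both libraries come from whole tissue with no treatment and no sorted cells, there is no control group, and both carry the same donor entry. The labels do not say whether 2 animals were used, and the difference between the libraries may be technical. In whole tissue, fewer cells of a type and less open DNA per cell cannot be told apart.

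DNase I cuts DNA where chromatin is open, so peaks of cut sites mark accessible promoters and enhancers, and a footprint is a short stretch inside a peak that is cut less because a protein covers it. Fibroblasts of the kidney lie between the tubules, carry the PDGF receptor alpha (Pdgfra) and make fibrillar collagen: Col1a1 and Col1a2 encode the chains of type I collagen and Col3a1 that of type III. Mural cells wrap vessels and, as mesangium, the glomerular capillaries. They carry the PDGF receptor beta (Pdgfrb), and smooth muscle adds the contractile proteins Acta2 (smooth muscle alpha-actin), Tagln (transgelin) and Myh11 (smooth muscle myosin heavy chain). Itga8 encodes integrin alpha8, found on mesangial and smooth muscle cells, and Rgs5 a regulator of G-protein signalling used as a pericyte marker. Serum response factor with its partner myocardin turns on contractile genes by binding the CArG box, and CTCF is a zinc-finger protein that binds very many sites in nearly every cell type and shapes chromatin loops.

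The sequences of 6 regions that carry the results below are given from the RefSeq GRCm38.p6 genome (mm10), 5′ to 3′ on the strand of the gene, with the bases that lay inside a footprint of both libraries in capitals. The first is the strongest region of all 10 windows, in intron 1 of Col1a1 (chr11:94937081-94937300, plus strand). Next come a region before the start of Pdgfra (chr5:75151201-75151440, plus strand) and the strongest regions of Myh11 in intron 10 (chr16:14237401-14237600, minus strand) and of Acta2 in intron 7 (chr19:34244141-34244360, minus strand). The last are the strongest region of Tagln before its start (chr9:45937021-45937200, minus strand) and the part of the Itga8 promoter region that lies before the gene (chr2:12301923-12302120, minus strand).
Col1a1 intron 1: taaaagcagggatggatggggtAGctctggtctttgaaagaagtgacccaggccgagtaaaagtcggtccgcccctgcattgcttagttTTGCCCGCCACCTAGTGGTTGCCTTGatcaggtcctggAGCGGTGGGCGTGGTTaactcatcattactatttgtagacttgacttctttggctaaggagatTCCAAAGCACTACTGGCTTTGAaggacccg
Pdgfra upstream: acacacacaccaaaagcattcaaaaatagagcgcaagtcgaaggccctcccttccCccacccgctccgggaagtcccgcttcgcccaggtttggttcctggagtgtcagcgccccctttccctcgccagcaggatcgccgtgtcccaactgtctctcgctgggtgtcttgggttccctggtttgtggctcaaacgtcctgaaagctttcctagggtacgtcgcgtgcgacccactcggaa
Myh11 intron 10: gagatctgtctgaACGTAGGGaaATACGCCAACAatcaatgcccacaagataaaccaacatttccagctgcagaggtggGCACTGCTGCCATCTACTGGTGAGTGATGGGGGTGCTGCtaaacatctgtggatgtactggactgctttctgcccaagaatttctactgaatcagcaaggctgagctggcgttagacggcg
Acta2 intron 7: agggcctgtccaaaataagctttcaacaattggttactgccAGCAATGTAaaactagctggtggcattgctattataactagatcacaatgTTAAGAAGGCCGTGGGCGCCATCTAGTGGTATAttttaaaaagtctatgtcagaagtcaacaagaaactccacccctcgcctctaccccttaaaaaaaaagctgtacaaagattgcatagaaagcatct
Tagln upstream: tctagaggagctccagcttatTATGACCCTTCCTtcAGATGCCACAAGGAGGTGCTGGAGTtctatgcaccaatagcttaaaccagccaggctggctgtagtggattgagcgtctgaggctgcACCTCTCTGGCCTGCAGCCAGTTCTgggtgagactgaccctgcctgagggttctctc
Itga8 promoter: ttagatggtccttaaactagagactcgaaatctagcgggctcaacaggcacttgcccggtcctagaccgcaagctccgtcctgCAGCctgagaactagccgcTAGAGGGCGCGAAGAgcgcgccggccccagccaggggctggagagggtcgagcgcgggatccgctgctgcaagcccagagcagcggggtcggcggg
The best match to the 12-letter core of the CTCF motif covered all 12 letters at positions 96 to 107 of the Col1a1 sequence and 109 to 120 of the Acta2 sequence. It covered 11 letters at positions 88 to 99 of the Myh11 sequence and 99 to 110 of the Itga8 sequence. These letters lay wholly in capitals in Col1a1, Acta2 and Myh11, and 8 of 12 did in Itga8. The Tagln and Pdgfra sequences reached 9 and 8 letters, below the 11 counted here as a match.

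The libraries held 125000 peaks (replicate 2) and 137083 peaks (replicate 1), which joined into 96735 shared regions on the chromosomes used. Each peak has a signal as the authors deposited it, and this signal is the unit of all values below. Taking its smallest step as 1 tag gives depths of 119.9 M (mega) tags in replicate 2 and 120.9 M in replicate 1, an inference from the values. As a check of the tissue, promoters were open in both libraries for 5 of 5 proximal tubule markers, 3 of 3 of the thick ascending limb and 5 of 5 of endothelium, against 0 of 4 immune and 0 of 3 skeletal and heart muscle markers. They were open for 2 of 3 collecting duct and 1 of 2 adipocyte markers, and for 63% of all protein-coding genes.

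Promoters counted as open when a shared region came within 500 bases of any start of a protein-coding transcript. By this rule 7 of the 10 genes were open, 4 of 4 fibroblast genes and 3 of 6 mural genes, beside 63% of all protein-coding genes. With the shorter peak lists, Col1a1, Col1a2 and Pdgfrb were no longer open, which left 2 of 4 fibroblast genes and 2 of 6 mural genes. With the stronger 50% of peaks it was 1 of 4 and 2 of 6. Each library alone had a promoter peak at 8 of the 10, beside 65.1% of all genes in replicate 2 and 64.5% in replicate 1. The open promoters were weak ones. Their mean signals lay between the percentiles 2.13 (Col1a2) and 28.3 (Pdgfra) among the 13643 open promoters of the genome, whose median was 4.78. Signal was higher in replicate 2 than in replicate 1 at all 7. At Col1a2, Col3a1 and Pdgfrb this difference was within counting error, as the counting interval of the ratio included 1.

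Among the fibroblast genes, Pdgfra (chr5:75152292-75198215) had the strongest promoter region, with a signal of 3.13 in replicate 2 and 1.69 in replicate 1 (2.41 ± 1.02, SD, n = 2). It lay in intron 1, 4.08 kb inside the gene, and 463 bases from the nearest of the 7 coding transcript starts of Pdgfra. This region also matched all 12 letters of the CTCF core, and the percentile of Pdgfra given above rests on it. With a promoter window of 100 bases the Pdgfra signal was 0.8504 in replicate 2 and 0.5457 in replicate 1, close to that of Col1a1. At the outermost start the signal was 0.559 in replicate 2 and 0.438 in replicate 1. The collagen promoters were weaker than this strongest Pdgfra region, but Col1a1 was above the outermost start of Pdgfra in both libraries. Col1a1 (chr11:94936224-94953042) had 0.759 in replicate 2 and 0.537 in replicate 1. Col1a2 (chr6:4504814-4541544) had 0.417 in replicate 2 and 0.364 in replicate 1. Col3a1 (chr1:45311538-45349706) had 0.475 in replicate 2 and 0.356 in replicate 1. The 3 collagen promoters thus stood at percentiles 6.39, 2.13 and 2.59, and the signals of Col1a2 and Col3a1 were apart by less than the 2 libraries of either gene.

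Among the mural genes, 3 had an open promoter, and the contractile genes differed from each other. Itga8 (chr2:12106632-12301922) had 2.28 in replicate 2 and 0.868 in replicate 1, the widest spread of the 7 promoters as a ratio. Myh11 (chr16:14194535-14291372) had 1.59 in replicate 2 and 1.12 in replicate 1. Pdgfrb (chr18:61045150-61085061) had 0.725 in replicate 2 and 0.653 in replicate 1, close to the collagen genes. Acta2 (chr19:34241090-34255590) had no promoter peak in either library, and 0 of the 1001 bases around its start were listed at a false discovery rate (FDR) of 0.05 or less in either. Tagln (chr9:45929619-45936058) had a start-site peak in replicate 1 alone, with a signal of 0.678. Replicate 2 listed 26 bases there at FDR 0.05, against 134 in replicate 1. Rgs5 (chr1:169655501-169695813) was the reverse, with a start-site peak of 0.375 in replicate 2 alone and no listed base in replicate 1. Of all protein-coding genes, 3.59% had a promoter peak in 1 library or unshared peaks in both, as Tagln and Rgs5 did.

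**Figure D1:**
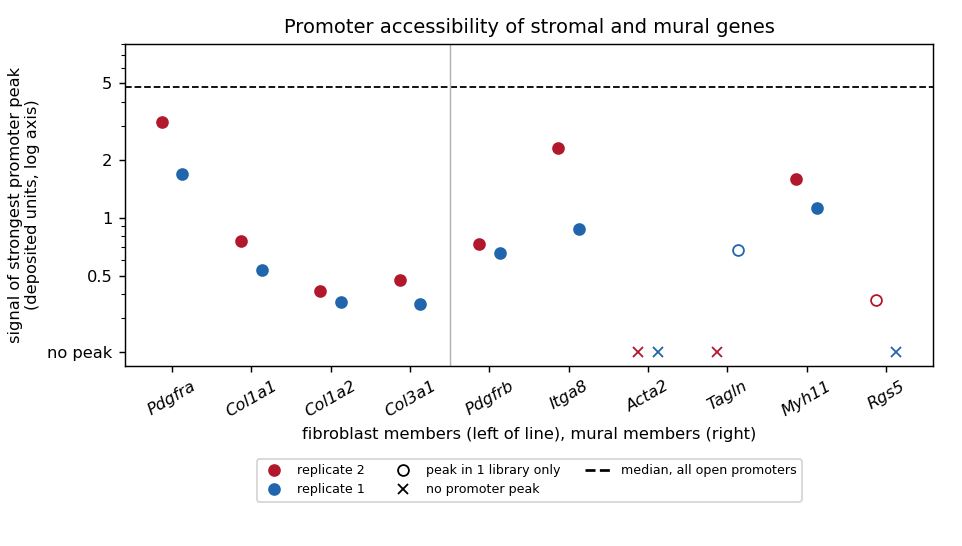
Signal of the strongest promoter peak of each gene (log axis, deposited units), replicate 2 left of replicate 1, fibroblast genes left of the line and mural genes right of it. Filled points are shared by both libraries, open points were found in 1 library, and crosses mark no promoter peak. All points lie below the dashed median of open promoters, 4.78, and both Acta2 points are crosses.

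The starts of the contractile genes are shown here because Acta2 had no promoter peak in either library whereas Myh11 had a shared promoter region. The 250 bases before the start of Tagln (chr9:45936059-45936308, minus strand) and of Myh11 (chr16:14291373-14291622, minus strand) follow, with a CArG box in capitals. The RefSeq start of Acta2 lies 217 bases inside the GENCODE gene, and 2 sites of 30 bases from its RefSeq promoter (chr19:34255438-34255467 and chr19:34255388-34255417, minus strand) follow with 10 letters in capitals that are 1 letter off the CArG box.
Tagln start: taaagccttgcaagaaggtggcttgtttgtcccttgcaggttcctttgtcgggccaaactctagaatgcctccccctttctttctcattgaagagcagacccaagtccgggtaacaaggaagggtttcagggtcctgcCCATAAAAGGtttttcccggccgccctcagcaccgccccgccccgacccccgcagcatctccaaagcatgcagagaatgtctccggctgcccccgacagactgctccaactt
Myh11 start: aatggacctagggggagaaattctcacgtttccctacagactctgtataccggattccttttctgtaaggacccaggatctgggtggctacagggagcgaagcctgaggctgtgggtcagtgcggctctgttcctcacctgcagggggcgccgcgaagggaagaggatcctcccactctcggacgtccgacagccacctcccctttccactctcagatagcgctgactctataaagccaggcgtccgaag
Acta2 site 1: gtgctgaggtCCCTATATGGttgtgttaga
Acta2 site 2: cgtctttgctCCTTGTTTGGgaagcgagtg
The CArG box of Tagln began 112 bases before the gene start. The sites of Acta2 began 84 and 34 bases before the RefSeq start, in a promoter of which 0 bases were listed at FDR 0.05 in either library. The printed stretch before Myh11 held a TATA box (TATAAA) 21 bases before the start and no CArG box, which says only that these letters are not in this window. A full CArG box was present in 1.63% of 32851 RefSeq promoters of 300 bases, and one with up to 1 inner letter off in 9.98%.

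Each of the 10 windows held at least 1 shared region, as did 82.1% of all genes. With the promoters, there were 45 shared regions, 24 around fibroblast genes and 21 around mural genes. Because the fibroblast windows were shorter (217.6 kb, against 513.3 kb for the mural windows), this was 11 regions per 100 kb around fibroblast genes and 4.09 around mural genes. The median over all protein-coding genes, each taken singly, was 6.77, whereas the group values pool the windows and so weigh long genes more. The fibroblast value rested much on Pdgfra, whose window alone had 12 regions. Without Pdgfra the other 3 fibroblast genes had 7.91 per 100 kb. The mural value rested much on Itga8, whose window alone was 215.3 kb, and without it was 5.37. With Pdgfrb and Itga8 counted as fibroblast genes the values were 6.9 for that group and 4.62 for the remaining mural genes. In single libraries, fibroblast windows had 15.2 peaks per 100 kb in replicate 2 and 12.9 in replicate 1, and mural windows 5.26 in replicate 2 and 6.43 in replicate 1, so the order of the groups was the same in each. A further 7 peaks of replicate 2 and 2 of replicate 1 had no partner in fibroblast windows, against 6 of replicate 2 and 12 of replicate 1 in mural windows.

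For 8 of the 10 genes the strongest region, by the mean of the libraries, was not a promoter region of the gene. Over all protein-coding genes with a region, the strongest one lay in the own promoter in 50.4%. The exceptions were Pdgfra, through its internal start, and Itga8. Of the 8 genes, Acta2, Tagln and Rgs5 had no shared promoter region that could be the strongest, and the 50.4% likewise counts genes with none. At Col3a1 the means were close, 0.435 in intron 1 and 0.415 at the promoter. In replicate 2 the Col3a1 promoter was the stronger, with 0.475 beside 0.309.

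**Figure D2:**
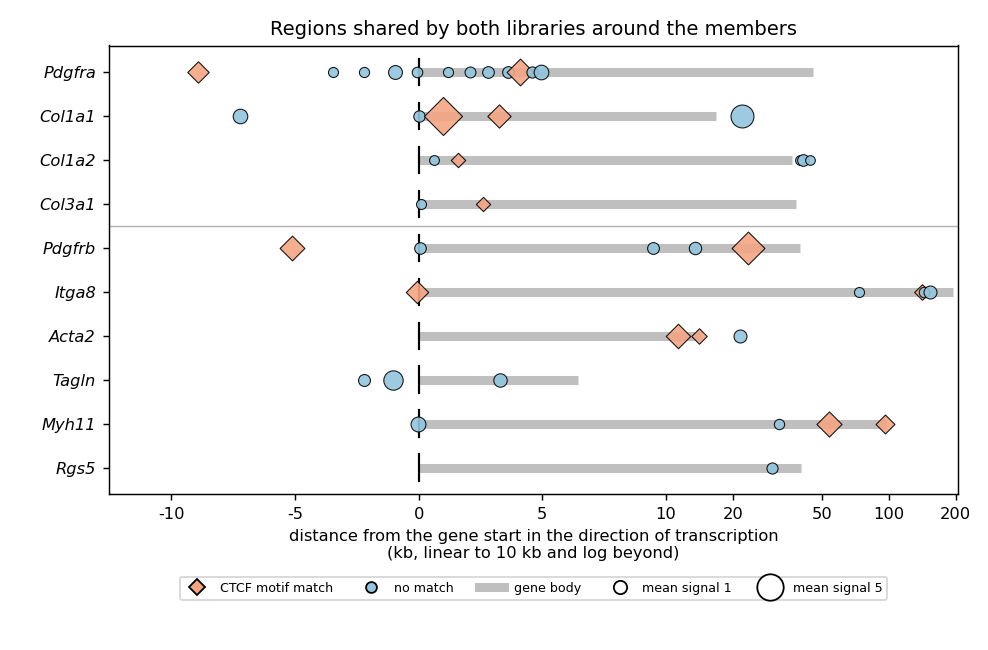
Position of each shared region relative to the gene start, in the direction of transcription (kb, linear to 10 kb and log beyond), with symbol area growing with mean signal and grey bars for gene bodies. Fibroblast genes are above the line and mural genes below it. The 3 largest symbols lie inside Col1a1, inside Pdgfrb and past the end of Col1a1, away from the starts, and diamonds mark regions with a CTCF motif match.

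Distances are given from the gene start, negative before it. Pdgfra had 12 regions between −8.9 kb and 4.94 kb, and no shared region in the rest of the gene. Signal was higher in replicate 2 in 11 of the 12. The region at −0.972 kb, whose sequence is given above, had 1.60 in replicate 2 and 0.653 in replicate 1, a ratio of 2.45 with a 95% counting interval of 1.88 to 3.23. The region at −8.9 kb had 1.89 in replicate 2 and 0.926 in replicate 1. The one region without a higher value in replicate 2, 4.94 kb inside the gene, had 1.28 in replicate 2 and 1.33 in replicate 1, within counting error of each other.

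Col1a1 had the strongest region of the 45, in intron 1 and 0.966 kb from the start. Its signal was 7.31 in replicate 2 and 3.13 in replicate 1 (5.22 ± 2.96, SD, n = 2), a ratio of 2.34 (2.07 to 2.65). This was 5.22 beside 0.648 at the promoter of the same gene, both as means. A second region in exon 6 had 2.49 in replicate 2 and 0.976 in replicate 1. The region 22 kb from the start, past the end of the gene, went the other way, with 3.14 in replicate 2 and 4.2 in replicate 1. The one at −7.2 kb was alike in both, with 1.28 in replicate 2 and 1.27 in replicate 1. Within this window, which also reaches the neighbouring gene Sgca, library ratios ran in both directions beyond counting error. The regions at the start of Col1a1 and inside it were all higher in replicate 2.

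The other collagen genes had few and weak regions. Col1a2 had 5, of which 3 lay past its end, and the strongest of these, 41.1 kb from the start, had 0.984 in replicate 2 and 0.413 in replicate 1. Col3a1 had 2: the promoter region and one in intron 1, 2.59 kb from the start, with 0.309 in replicate 2 and 0.562 in replicate 1. This intronic region was the only one around fibroblast genes besides that past Col1a1 whose counting interval lay on the side of replicate 1.

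Pdgfrb had 5 regions. The strongest, in intron 10 and 23.4 kb from the start, had 5.55 in replicate 2 and 2.04 in replicate 1, a ratio of 2.72 (2.35 to 3.16). It was followed by a region at −5.13 kb with 2.85 in replicate 2 and 1.16 in replicate 1. The other 2 intronic regions, both in intron 2, were weaker. At 9.47 kb the signal was 0.775 in replicate 2 and 0.662 in replicate 1, with a counting interval of the ratio that included 1. At 13.4 kb it was 0.7004 in replicate 2 and 0.959 in replicate 1, the opposite direction.

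Itga8 had 5 regions in a window of 215.3 kb. Besides the promoter, 4 weak regions lay in introns 13 to 25, from 73.4 to 154 kb inside the gene. Signal in these was higher in replicate 1 in 3 of the 4. The region at 73.4 kb, with 0.250 in replicate 2 and 0.595 in replicate 1, was the one region of the 45 that was over 2-fold higher in replicate 1, beside 4.31% of all regions. A single gene thus held a promoter at a ratio of 2.63 (2.09 to 3.33) and an intronic region at 0.420 (0.265 to 0.652).

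Acta2 had no promoter region but a region in intron 7, 11.3 kb from the start, with 2.12 in replicate 2 and 1.79 in replicate 1. A second region at its last exon had 0.634 in replicate 2 and 0.504 in replicate 1, and another past its end, inside the neighbouring gene Stambpl1, had 0.892 in replicate 2 and 0.992 in replicate 1. All 3 counting intervals of the ratio included 1. Tagln had its strongest region at −1.05 kb, with 2.76 in replicate 2 and 2.30 in replicate 1. The region at −2.21 kb touched the neighbouring gene Sidt2, and the one in intron 1 had 1.18 in replicate 2 and 0.901 in replicate 1. At Tagln, the counting interval of the ratio lay above 1 at −1.05 kb and in intron 1, and it included 1 at −2.21 kb. At the strongest region of each gene, the libraries were closer for Acta2 and Tagln than for Col1a1 and Pdgfrb. This order did not hold for all other regions, since some weaker regions of Col1a1 and Pdgfrb were as close or closer.

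Myh11 had 4 regions. The strongest lay in intron 10, 53.9 kb from the start, with 3.002 in replicate 2 and 1.14 in replicate 1, a ratio of 2.63 (2.16 to 3.23). A region in intron 41 had 1.41 in replicate 2 and 0.637 in replicate 1, whereas one in intron 3 had 0.375 in replicate 2 and 0.562 in replicate 1. Rgs5 had a single shared region, in intron 3 and 30 kb from the start, with 0.467 in replicate 2 and 0.719 in replicate 1. With 1.66 regions per 100 kb it had the lowest density of the 10 genes.

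Taking all 45 regions, signal was higher in replicate 2 in 33 (73.3%), beside 49.4% of all shared regions. It was over 2-fold higher in replicate 2 in 10 (22.2%), beside 7.64% of all regions, and the 10 came from 6 genes. The 95% counting interval of the ratio lay above 1 in 18 regions and below 1 in 8, beside 27.4% and 26.7% of all regions. On the log2 scale, with replicate 2 over replicate 1, the median was 0.40 over the 45 regions, 0.48 around fibroblast genes and 0.24 around mural genes, beside −0.01 over all regions, whose standard deviation was 0.63. The direction was more even around fibroblast genes, where 20 of 24 regions were higher in replicate 2, than around mural genes, where 13 of 21 were. Pdgfra alone gave 12 of these 24 regions and 11 of the 20, so the fibroblast count rests much on 1 gene. Without Pdgfra the fibroblast median was 0.44. By gene, the median ratio was above 0 for 7 of the 10 (not for Col3a1, Itga8 and Rgs5), beside 59.6% of genes with a region. Of the 17 with a mean signal of 1 or more, a split made after the values were seen, 15 were higher in replicate 2, beside 50.7% of such regions, and 9 (52.9%) were over 2-fold higher, beside 9.44%. This cut uses the same 2 values as the ratio, so it is not independent of it. Some regions passed it through replicate 2 alone, such as the Itga8 promoter with 2.28 in replicate 2 and 0.868 in replicate 1. With 2 libraries of 1 group, no test of this difference between libraries can be made across samples.

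**Figure D3:**
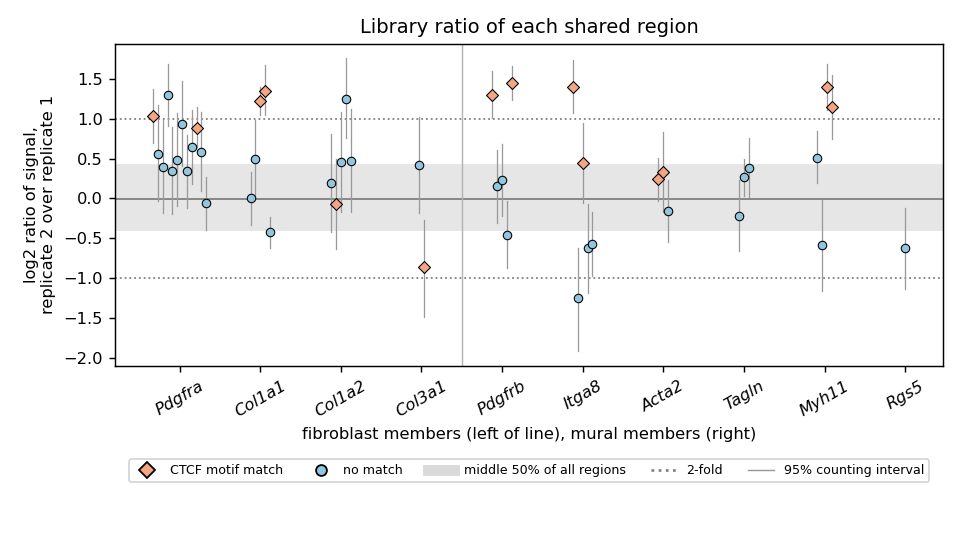
The log2 ratio of signal, replicate 2 over replicate 1, for each of the 45 shared regions by gene, with the 95% counting interval as a grey line. The grey band is the middle 50% of all shared regions and the dotted lines mark a 2-fold difference. Diamonds (CTCF motif match) make up 8 of the 10 points above the upper dotted line, beside 51.6% of all shared regions that are over 2-fold higher in replicate 2, and the lowest point is a region of Itga8 with no match.

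Regions with a CTCF motif match made up 10 of the 17 regions with a mean signal of 1 or more, beside 13.4% of such regions in the genome. They made up 8 of the 10 that were over 2-fold higher in replicate 2, beside 51.6% of such regions in the genome. A match, meaning at least 11 of 12 core letters on either strand in the central 200 bases, was present in 14 of the 45 regions (31.1%), 6 around fibroblast genes and 8 around mural genes, beside 11.5% of all shared regions. It was present in the strongest region of 7 of the 10 genes (Pdgfra, Col1a1, Col3a1, Pdgfrb, Itga8, Acta2 and Myh11), beside 10.8% of all genes with a region. Among the 8 genes whose strongest region lay outside the promoter, 5 had a match there, beside 18.3% of such genes. The search for this motif was added after the sequences had been seen.

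Of the 14 matched regions, 8 were over 2-fold higher in replicate 2 (57.1%), beside 34.3% of matched regions in the genome. Of the 31 regions with no match, 2 were (6.45%), beside 4.18%. The median log2 ratio was 1.09 in the matched regions, beside 0.79 in matched regions of the genome, and 0.34 in the unmatched ones, beside −0.08. Without matched regions the fibroblast median was 0.47 over 18 regions, and the mural median was −0.21 over 13 regions. Of the matched regions 12 of 14 were higher in replicate 2, beside 89.6% of matched regions in the genome, and of the unmatched ones 21 of 31, beside 44.2%. The matched regions near mural genes were higher in replicate 2 in 8 of 8, and the unmatched ones in 5 of 13. In the fibroblast windows the unmatched regions were higher in replicate 2 in 16 of 18, and 10 of these 18 are from Pdgfra. The 2 matched regions that were not higher in replicate 2 lay in intron 1 of Col3a1, at −0.87, and in intron 1 of Col1a2, at −0.07. The 2 unmatched regions over 2-fold higher in replicate 2 lay before Pdgfra, at 1.29, and past Col1a2, at 1.25. What sets the library difference was not tested.

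**Figure D4:**
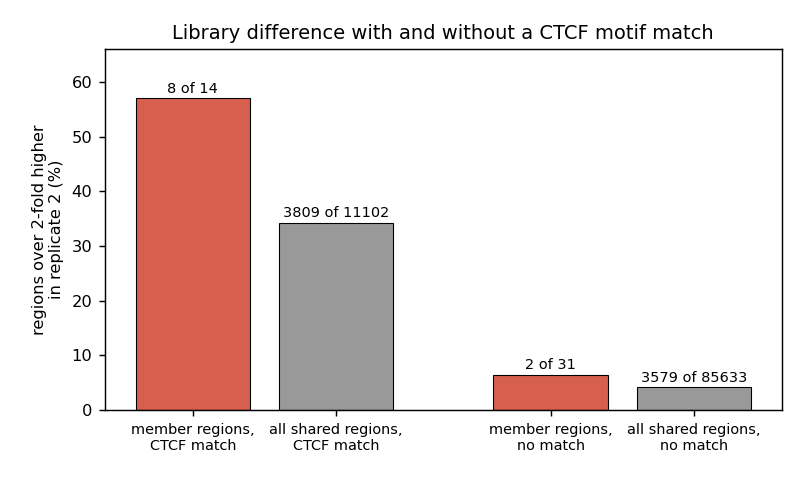
Percent of regions over 2-fold higher in replicate 2, with a CTCF motif match (left pair of bars) and with no match (right pair), for the regions around the 10 genes and for all shared regions, with counts above the bars. The bars of matched regions stand at 57.1% and 34.3%, those of unmatched regions at 6.45% and 4.18%.

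Footprints were counted next. Around the 10 genes there were 131 footprints in replicate 2 and 104 in replicate 1, of which 48 were shared. Sharing needed an overlap of at least 1 base, and with 50% of the shorter footprint 42 were shared. The shared stretch in the Pdgfra upstream sequence above is 1 base long. A shared footprint was present in 26 of the 45 regions (57.8%), beside 66.1% of all regions. This was 10 of 24 regions around fibroblast genes and 16 of 21 around mural genes. The shared footprints numbered 21 around fibroblast genes, 12 of them in Col1a1 and 8 in Pdgfra, and 27 around mural genes, with Myh11 at 8 and Tagln at 6. Col3a1 and Rgs5 had none. A CTCF match was present in 11 of the 48 (22.9%), beside 5.85% of all shared footprints. In the Col1a1 sequence above, the longest run of capitals is the one that holds the CTCF letters.

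The deposited FDR of the cut rate gave each window a share of accessible bases. Around fibroblast genes 5.45% of bases in replicate 2 and 3.42% in replicate 1 were listed at FDR 0.05 or less, with 3.04% in both libraries at once. Around mural genes it was 1.58% in replicate 2 and 1.63% in replicate 1, with 1.18% in both. The median over all genes, each taken singly, for bases listed in both was 2.7%, whereas the group shares pool the windows. Single genes ranged widely within each group. Pdgfra had 10.8% in replicate 2 and 5.05% in replicate 1, and Col1a1 8.05% in replicate 2 and 5.08% in replicate 1, whereas Col3a1 had 0.636% in replicate 2 and 1.17% in replicate 1. Among mural genes Tagln was highest, with 6.27% in replicate 2 and 4.78% in replicate 1, and Itga8 was lowest, with 0.767% in replicate 2 and 1.04% in replicate 1. The fibroblast and mural genes therefore overlapped in this measure, with Tagln above Col1a2 and Col3a1 in both libraries.

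**Figure D5:**
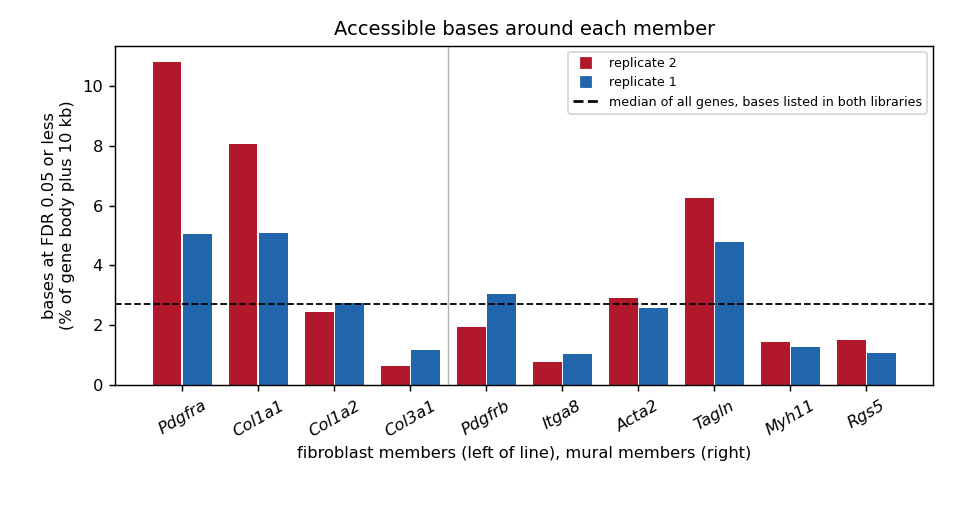
Percent of bases at FDR 0.05 or less in the gene body plus 10 kb, per gene, with replicate 2 left of replicate 1 and fibroblast genes left of the line. The dashed line is the median over all genes of bases listed in both libraries, 2.7%. Pdgfra, Col1a1 and Tagln stand above it in both libraries.

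Motifs of factors known for these cells were also counted in the 45 regions. The full CArG box was in 0 of them, beside 0.936% of all regions, and with up to 1 inner letter off in 2 (around Col1a2 and Itga8), beside 6.55%. The MCAT element bound by TEAD factors (GGAATG) was in 1 region (2.22%), beside 13.8% of all regions, and the AP-1 letters TGANTCA in 3 (6.67%), beside 6.93%. GGGCGG, bound by SP and KLF factors, was in 11 (24.4%), all around Col1a1, Col1a2 and Pdgfra, beside 17.7%. The E-box CAGCTG was in 5 (11.1%), beside 16.2%, and CCAAT in 12 (26.7%), beside 23.9%. TATAAA was in 4 (8.89%), beside 6.04%, the RBPJ letters GTGGGAA in 3 (6.67%), beside 4.56%, and the RUNX letters TGTGGT in 4 (8.89%), beside 12.7%. The FOX letters TGTTTAC, the EBF motif (TCCC, 2 bases of any kind, GGGA) and the NFI motif (TTGGC, 5 bases of any kind, GCCAA) were in 0 regions, beside 3.03%, 0.962% and 0.128%. All were searched on both strands of the central 200 bases, and each share of the 45 rests on few regions. Within shared footprints, with 5 bases added on each side, the SP and KLF letters, the E-box and the RUNX letters were each found once (2.08% of the 48), all around Col1a1, beside 12.4%, 2.26% and 1.51% of all shared footprints, in that order.

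Other genes of the same pathways were read the same way, with 63% of all protein-coding genes open by the same rule. The PDGF ligands were open in 4 of 4, led by Pdgfb with 5.83 in replicate 2 and 6.78 in replicate 1, then Pdgfa with 3.49 in replicate 2 and 3.69 in replicate 1, and Pdgfc with 1.96 in replicate 2 and 1.27 in replicate 1. The promoters of Pdgfb and Pdgfa were thus stronger than those of both receptors in each library. Of the partners of integrin alpha8, Itgb1, its beta chain, had 5.28 in replicate 2 and 5.79 in replicate 1, and Npnt, the matrix ligand nephronectin, had 0.942 in replicate 2 and 0.678 in replicate 1. The regulators of contractile genes were open in 6 of 7. Mrtfa, a coactivator of serum response factor, had 15.8 in replicate 2 and 21.01 in replicate 1, Srf itself had 10.5 in replicate 2 and 12.2 in replicate 1, and Ebf1 had 4.79 in replicate 2 and 4.50 in replicate 1. Myocd, which encodes myocardin, the coactivator found in smooth and heart muscle, had no promoter region.

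Further contractile genes were open in 9 of 13, and those with the strongest promoters were Vcl (vinculin) with 16.8 in replicate 2 and 19.6 in replicate 1, Tpm1 (tropomyosin) with 17.0 in replicate 2 and 17.7 in replicate 1, and Smtn (smoothelin) with 9.41 in replicate 2 and 10.9 in replicate 1. Vinculin and tropomyosin are made by many cell types. Cnn1, Mylk, Actg2 and Pln had no open promoter. Pericyte and mesangial genes were open in 8 of 13, led by Cspg4 with 2.52 in replicate 2 and 2.82 in replicate 1, Mcam with 2.35 in replicate 2 and 1.32 in replicate 1, and Kcnj8 with 1.38 in replicate 2 and 1.00 in replicate 1. Abcc9, Higd1b, Cox4i2, Ndufa4l2 and Ren1 were not open. Of 24 further fibroblast and matrix genes, 15 were open (62.5%), led by Col6a2 with 2.18 in replicate 2 and 1.51 in replicate 1, S100a4 with 1.58 in replicate 2 and 1.23 in replicate 1, and Col5a2 with 1.45 in replicate 2 and 0.819 in replicate 1. Lum, Dpt, Postn, Mmp2, Mfap5, Pi16, Col6a1, Col14a1 and Thy1 were not open. The open shares of the contractile, pericyte and fibroblast lists, 69.2%, 61.5% and 62.5%, were near the 63% of all protein-coding genes. Of the genes called not open, Mylk, Mmp2 and Col14a1 had a promoter peak in replicate 2 alone, and Abcc9 and Dpt in replicate 1 alone.

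The other lists had median library ratios closer to that of all regions. The median log2 ratio was 0.01 for 120 regions of fibroblast and matrix genes, 0.02 for 99 of contractile genes and 0.06 for 63 of pericyte and mesangial genes, beside 0.40 for the 45 regions of the 10 genes. It was 0.12 for regulators and −0.13 both for PDGF ligands and for the partners of integrin alpha8. For markers of other cells the medians were −0.19 for proximal tubule, −0.31 for thick ascending limb, −0.18 for endothelium and 0.10 for collecting duct. They were −0.23 for immune, −0.11 for muscle and −0.08 for adipocyte markers. In the fibroblast and matrix list, too, regions with a CTCF match had a higher median (0.68 over 11 regions) than those without (−0.04 over 109). The contractile list had 0.64 over 12 matched regions and −0.08 over 87 unmatched ones. Lists of other cells had a higher median with a match as well. Endothelium had 1.33 over 3 matched regions and −0.235 over 27 unmatched ones. Proximal tubule had 0.73 over 4 and −0.38 over 26. The pericyte, regulator, immune, muscle and adipocyte lists had the same direction. PDGF ligands had −0.32 over 2 matched regions and −0.13 over 30 unmatched ones, and the partners of integrin alpha8 −0.17 over 2 and −0.13 over 14. Over all shared regions, 7.64% were over 2-fold higher in replicate 2. Such regions numbered 11 of 120 for fibroblast and matrix genes and 2 of 99 for contractile genes. They numbered 5 of 63 for pericyte and mesangial genes and 8 of 72 for regulators. The count was 0 of 32 for PDGF ligands and 1 of 16 for the partners of integrin alpha8. It was 2 of 16 for thick ascending limb, 2 of 30 for endothelium and 1 of 30 for proximal tubule. For collecting duct it was 0 of 9 and for immune markers 0 of 13. Muscle markers had 2 of 8 and adipocyte markers 2 of 10, shares near the 10 of 45 of the 10 genes, on few regions.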

How the data were processed

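DNase-seq was read from kidney tissue of 2 libraries of 1 group. For each library, the authors deposited 2 peak lists, a list of footprints and the FDR of the cut rate, all on mm10 and from that library alone, per the file headers. The aligner and the callers of peaks and footprints were not given in the sources used here. The deposited signal of each peak was used as it stands. Its values were whole multiples of 1 step (100% within 0.05 steps), so that 119.9 M (replicate 2) and 120.9 M (replicate 1) tags are inferred. The deposited FDR is a p-value type listed to 0.05, and each footprint carries the authors' constant level of 0.01. Peaks of the longer list that overlapped by at least 1 base were joined, and each shared region took the highest signal of each library. Intervals of ratios are exact binomial at 95%, assume 1 step is 1 tag, and cover counting error only. Reads of the CAST/EiJ chromosome set may map differently, which was not tested. Of the genome's peaks, 262083 of 262083 lay inside the RefSeq chromosome lengths. The genes, lists and measures were chosen with earlier results of these data known. The 10 genes are named in full, and in each further list the 3 strongest open promoters and those not open. Mrtfa and Mrtfb stand for Mkl1 and Mkl2. The CTCF and looser CArG searches were added after the sequences were seen. Alternatives changed the window, the peak list, the overlap, the grouping and the libraries used. Joins were tested on simulated data. Python 3.11.15, numpy 2.4.6, scipy 1.17.1 and pysam 0.24.0 were used. With 1 group of 2 libraries, no test was run. The podocyte marker list is not reported here.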

Additional observations from a re-analysis of the deposited data

How the results depend on the processing

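Over 9 results and 82 alternatives, 60 values stayed near the main one, 21 moved and 1 changed sign. Some of the 60 could not differ, since leaving Pdgfrb and Itga8 out of both groups does not alter the fibroblast group. For the mural group, leaving them out and counting them as fibroblast genes are the same change, and both were counted. With the shorter peak lists the open promoters numbered 4 (2 of 4 fibroblast and 2 of 6 mural genes), the shared regions 29 and the fibroblast density 6.43 per 100 kb. With the stronger 50% of peaks they were 3, 16 and 3.22, the mural density was 1.75, and the median log2 ratios were 0.702 for all 10 genes, 0.890 for fibroblast genes and 0.513 for mural genes. Windows of 50 kb gave 91 regions, a mural median of 0.069 and 123 shared footprints, and gene bodies alone 28 footprints. Counting Pdgfrb and Itga8 as fibroblast genes gave 6.9 regions per 100 kb. At FDR 0.001, 0.858% of bases were listed in both libraries. Using 1 library alone gave 8 open promoters in either, 58 (replicate 2) and 61 (replicate 1) regions, 14.2 and 12.9 per 100 kb around fibroblast genes, 5.26 and 6.43 around mural genes, 131 and 104 footprints and 2.73% and 2.16% of bases. The mural median became −0.215 once regions with a CTCF match were left out, an alternative chosen after seeing the data. The cause of these shifts was not tested, beyond the fewer peaks of stricter lists and the wider or narrower windows. No paired analysis was possible because there is 1 group. Low signals rest on few tags, so weak regions may be missed at this depth.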
